A study of Mus musculus with 4 samples.

Results

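The genes of 8 gut peptides were followed by gene ID through 2 single-cell libraries of the mouse small intestinal lamina propria (SILP), among 31950 gene IDs that both libraries list. The genes were Gcg, Penk, Sst, Cck, Gip, Pyy, Nts and Chga, and all 8 of 8 had UMIs (unique molecular identifiers, each counted as 1 captured RNA molecule) in both libraries. Gcg and Penk were chosen by their levels in these libraries, where earlier results had them among the leading genes of T cell clusters, so their levels are given as a description. The other 6 are further genes of gut hormones and their granules. The libraries came from 12-week-old WT mice and from homozygous A20ZF7 mice, whose A20 (the product of Tnfaip3) carries point mutations in the M1-ubiquitin binding motif of zinc finger 7. Each library pooled lamina propria cells of 2 mice, which were depleted of other cells to enrich for T cells and innate lymphoid cells (ILCs). The cells of each mouse were hashtagged, 60000 cells were collected per genotype, and RNA was captured from its 5′ end. With 1 library per genotype there is no replicate check and no p-value is given. All intervals below are 95% intervals that cover counting error only, exact Poisson for levels, exact binomial for shares of cells and exact conditional for ratios.

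Gut peptides are mostly made by enteroendocrine cells, scattered epithelial cells that store hormones in dense-core granules and release them when nutrients reach the lumen. Gcg encodes proglucagon, which is cut to glucagon in pancreatic alpha cells and to the incretin GLP-1 and to GLP-2 in intestinal L cells. Penk encodes proenkephalin, the precursor of the opioid enkephalins, and besides neurons it is known from fibroblasts and activated T cells. In droplet libraries, RNA freed from broken cells is captured with every cell, so a hormone RNA in a lymphocyte barcode has to be read against barcodes that hold no cell.

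In the mm10 (GRCm38) build, Gcg (ENSMUSG00000000394) lies on the minus strand at chr2:62474530-62483650 and Penk (ENSMUSG00000045573) on the minus strand at chr4:4133531-4138819. The 100 bases before the Gcg transcript start in RefSeq (GRCm38.p6, chr2:62483654-62483753, minus strand) are shown for Gcg, whose RNA was concentrated in few barcodes. TATAAA was found on both strands, with first bases 72 and 24 before the start (in capitals, the former as its reverse complement), and 5.56% of 32851 such windows held it.
Gcg: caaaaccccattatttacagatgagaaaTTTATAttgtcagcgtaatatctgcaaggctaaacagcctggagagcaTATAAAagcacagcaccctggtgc

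The WT library held 35171651 UMIs and the A20ZF7 library 52727058, from which 14734 and 43162 cells were kept (median 1059 and 853 UMIs). Lymphocyte clusters held 5412 WT and 22740 A20ZF7 cells (median 876 and 713 UMIs), epithelial clusters 579 and 326, and stromal clusters 7400 and 15179. Stromal cells thus made up 50.2% and 35.2% of cells despite the enrichment. Barcodes of 1 to 50 UMIs, here called sparse, numbered 321345 and 343451 with 1470161 and 786043 UMIs in all, and stand for free RNA. Levels are given as CPM, the UMIs of a gene scaled to a fixed total of UMIs in the same set of barcodes. The 18 epithelial genes used as a reference (among them Epcam, Fabp1 and Reg3b) summed to 4152 CPM in WT sparse barcodes but 247 CPM in WT lymphocytes, and to 594 and 63.6 CPM in A20ZF7. T cell RNA was free as well: the summed Cd3e, Cd3d, Cd3g and Trac reached 992 and 1379 CPM in sparse barcodes, and Il17a, which encodes the cytokine IL-17A, 91.8 CPM in WT and 590 CPM in A20ZF7. Both libraries kept 913 cell barcodes in common.

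No cluster was made of enteroendocrine cells. A list of enteroendocrine markers summed to 5.12 and 2.38 CPM in epithelial clusters of WT and A20ZF7 but to 32.0 and 8.41 CPM in lymphocytes, of which the ILC2-like cluster 4 had 87.9 and 14.7 CPM. Nearly all of the lymphocyte sum was Pcsk1, a prohormone convertase (168 of 180 UMIs in WT and 167 of 170 in A20ZF7). Sct, the secretin gene, which this list does not hold, had 45 UMIs in WT epithelial cells (20.9 CPM). Of the 8 genes, 2 had at least 20 UMIs over WT lymphocytes and sparse barcodes together, and 0 of these were at least 2-fold higher in lymphocytes and 0 lower, where 12.6% of all genes tested were higher and 14.5% lower. In A20ZF7, 2 passed the same minimum and 2 were higher (Gcg and Penk), beside 6.65% higher and 17.4% lower of all genes tested. Leaving out barcodes that held 20 or more UMIs of 1 of the 8 genes, only Penk remained higher in A20ZF7 lymphocytes (background 6.64%). In stromal cells, Penk and Cck were at least 2-fold above sparse barcodes in WT (2 of the 2 that passed, beside 30% of all genes), and Gcg was in A20ZF7 (1 of the 3 that passed, beside 18.9% of all genes), through 2 barcodes. Without these, stromal Gcg was at 2.10 CPM against 8.91 CPM in sparse barcodes. The WT ratios were 3.45 for Penk (2.33 to 5.33) and 2.49 for Cck (0.927 to 9.41, which includes no difference). In epithelial cells, 1 gene passed in each library: Penk was 2-fold or more below sparse barcodes in WT (31.4% of all genes were lower and 21.8% higher) and not called in A20ZF7 (10.7% of all genes higher, 9.54% lower). Since genes pass this minimum through the set in which they are high, these counts describe the genes that passed, not all 8.

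**Figure D1:**
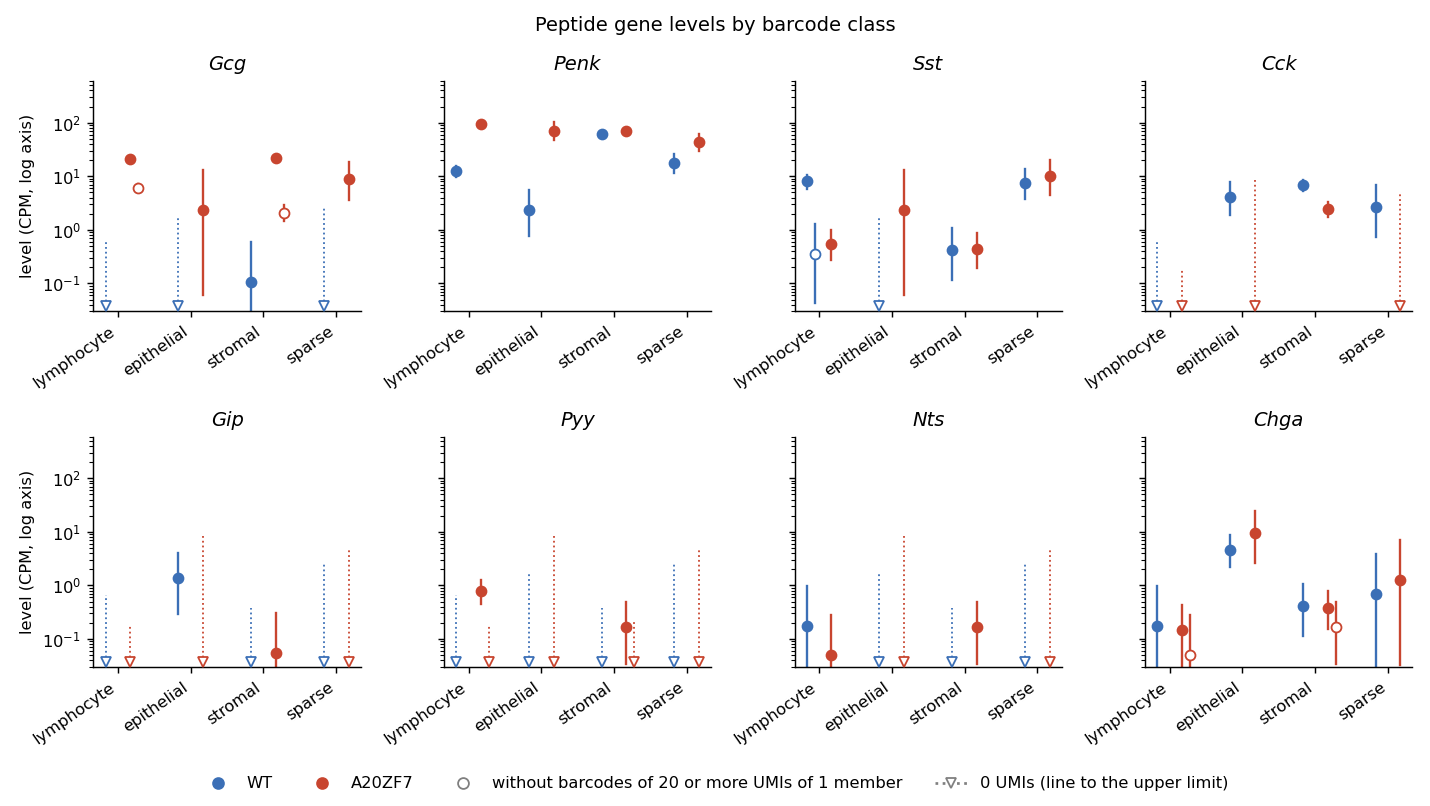
Level of each of the 8 genes (CPM, log axis) in lymphocyte, epithelial, stromal and sparse barcodes of WT (blue) and A20ZF7 (red), with exact 95% Poisson intervals. Open circles leave out barcodes with 20 or more UMIs of 1 gene and triangles mark 0 UMIs with a line to the upper limit: Gcg in A20ZF7 lymphocytes falls from 21.0 to 6.09 CPM, below the 8.91 CPM of sparse barcodes, while Penk stays at 93.3 CPM.

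Gcg was nearly absent from the WT library, where 5 UMIs were spread over 4 of all 576003 barcodes. None was in a lymphocyte or a sparse barcode, 1 was in a stromal cell, and 1 and 2 were in the barcodes richest in Cck. The A20ZF7 library held 855 Gcg UMIs in 122 barcodes. Of these, 660 UMIs (77.2%) sat in 3 barcodes with 301, 204 and 155 each, while no other barcode held more than 11. Most of the Gcg in this library was thus in 3 droplets.

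The 3 Gcg-rich barcodes carried other genes known from pancreatic islet cells. Gcg made up 25.5%, 12.6% and 10.4% of their 1182, 1613 and 1488 UMIs. Next to it they held 36, 0 and 3 UMIs of Ppy, the pancreatic polypeptide gene, and 18, 8 and 10 UMIs of Ttr, the transthyretin gene, which alpha cells express strongly. Pyy, the peptide YY gene, which L cells make as well, followed with 16, 2 and 1 UMIs. Each barcode also held Pcsk2, the prohormone convertase that makes glucagon (4, 2 and 2 UMIs), and Chga, a granule protein (2, 3 and 1 UMIs). Ins2, the insulin gene, had 1 UMI over all 3. These islet genes were looked up after the leading genes of the barcodes had been seen. The lymphocyte marker list had only 1, 2 and 3 UMIs in these barcodes and the stromal list 0, 25 and 7. Clustering had nevertheless put the first with the proliferating lymphocytes of cluster 6 and the others with the stromal cells of cluster 5. The barcode of the second also occurred in the WT library, with 2674 UMIs but 0 of Gcg.

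**Figure D2:**
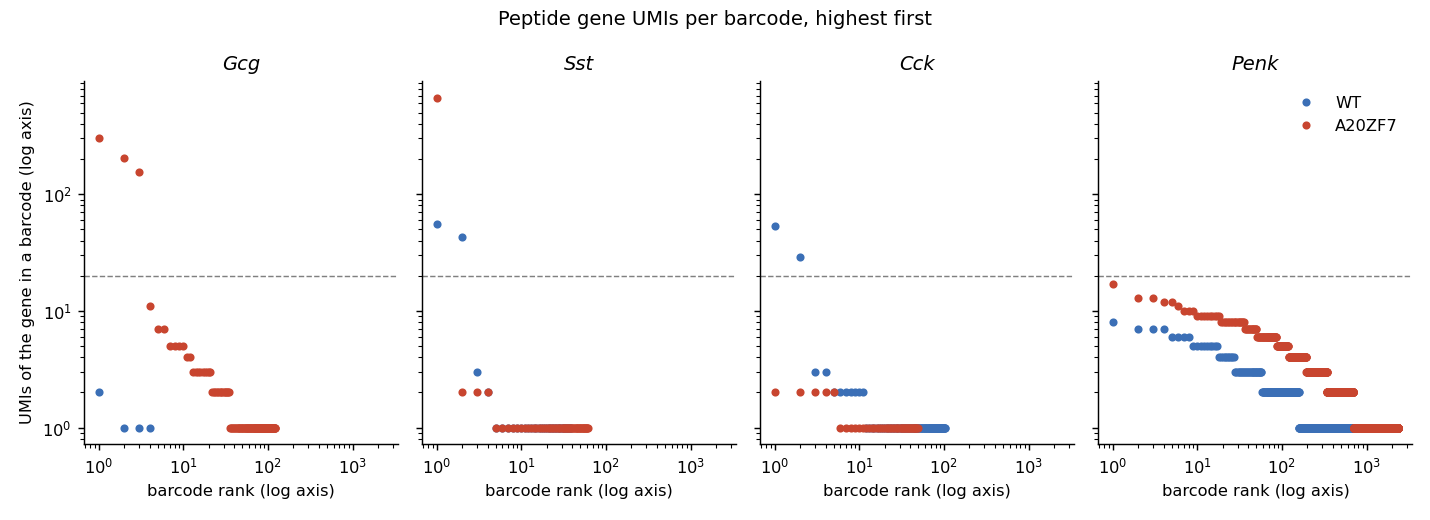
UMIs of Gcg, Sst, Cck and Penk in each barcode that held any (log axis), ranked from the highest, in WT (blue) and A20ZF7 (red), with a dashed line at 20 UMIs. A few barcodes stand far above the rest for Gcg (301, 204 and 155), Sst (673) and Cck (53), whereas Penk reaches at most 17.

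**Figure D3:**
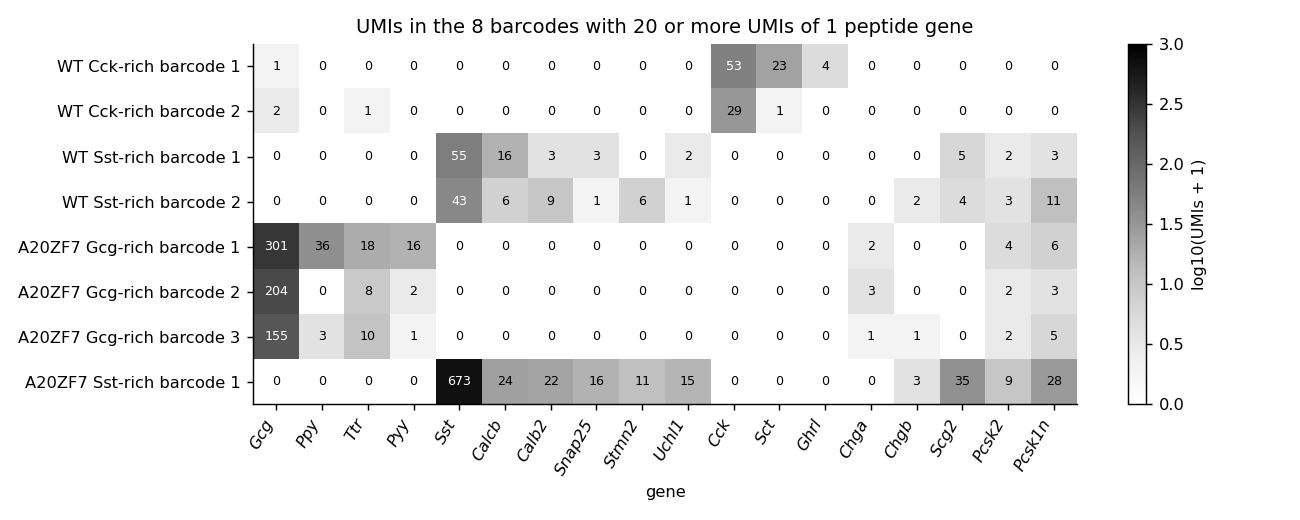
UMIs of peptide, islet, neuronal and marker genes in the 8 barcodes with 20 or more UMIs of 1 of the peptide genes. The 3 Gcg-rich barcodes share Ttr and Pcsk2, the Sst-rich barcodes share Calcb and Scg2, and the Cck-rich barcode of 53 UMIs holds Sct with 23 UMIs.

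In A20ZF7 lymphocytes Gcg stood at 21.0 CPM (19.0 to 23.1, 424 UMIs) against 8.91 CPM (3.58 to 18.3) from only 7 UMIs in sparse barcodes, a ratio of 2.36 (1.13 to 5.89). A single barcode carried this excess. Without the rich barcodes the level was 6.09 CPM (5.06 to 7.26, 123 UMIs) and the ratio 0.683 (0.322 to 1.74), whose interval spans both directions. Stromal cells went from 21.9 CPM (397 UMIs) to 2.10 CPM (1.48 to 2.88, 38 UMIs). So the remaining Gcg was 2.90-fold higher in lymphocytes than in stromal cells (2.003 to 4.29), though not above the sparse barcodes. Of all genes tested, 8.6% were at least 2-fold higher in lymphocytes than in stromal cells. The summed epithelial reference genes were at 0.107 of their sparse level in these lymphocytes. A ratio below 1 therefore does not place lymphocyte Gcg at the level of free RNA, and the part of free RNA in it was not tested. In barcodes of 51 to 200 and of 51 to 100 UMIs Gcg was at 3.17 CPM (1.16 to 6.90, 6 UMIs) and 2.98 CPM (0.614 to 8.70, 3 UMIs), below the 6.09 CPM of lymphocytes but with overlapping intervals.

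The share of cells with a Gcg UMI was low everywhere in A20ZF7. It was 0.286% in lymphocytes without the rich barcode (median 713 UMIs per cell). In B and plasma cells (median 1953 UMIs), which are not known to make Gcg, the share was 0.305%. As their depths differ, these shares do not rank lymphocytes against B and plasma cells. Over B and plasma cells and sparse barcodes together, Gcg did not reach 20 UMIs. In cells thinned to 500 UMIs the share was 0.252% in lymphocytes and 0.0632% in stromal cells. Among lymphocyte clusters without the rich barcode, Gcg was at 12.1 CPM (8.97 to 15.8) in the proliferating cluster 6, 7.35 CPM in the Treg-like cluster 9, 6.55 CPM in cluster 0, led by Il17a, and 4.02 CPM or less in clusters 2, 3, 4 and 16. Cluster 6 exceeded sparse barcodes 1.35-fold, with an interval (0.612 to 3.54) that includes no difference.

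Islet genes were also set beside Gcg outside the rich barcodes of A20ZF7. The 3 rich barcodes held 660 UMIs of Gcg with 36 of Ttr, 39 of Ppy, 19 of Pyy and 8 of Pcsk2. Lymphocytes without the rich barcode held 123 of Gcg with 0 of Ttr, 1 of Ppy, 0 of Pyy and 8 of Pcsk2. Stromal cells without the rich barcodes held 38 of Gcg with 1, 5, 0 and 16 of these genes. The other 119 barcodes with Gcg held 195 Gcg UMIs, 1 each in 87 of them and 5 or more in 7. Over their 139685 UMIs there was no UMI of Ttr, Ppy, Pyy or Pcsk2 and 1 of Chga. As these barcodes were picked by their Gcg UMI, this absence does not show whether Gcg and islet genes go together. Some cytokine genes, chosen after their values had been seen, were higher in these barcodes than in lymphocytes or stromal cells. Of the 119 barcodes, 65 were lymphocytes and 24 stromal cells. Il17a was at 2864 CPM in them against 1740 CPM in all lymphocytes without the rich barcode, Il22 at 1196 against 559 CPM, Il17f at 558 against 267 CPM, and Ccl20, a chemokine, at 208 against 112 CPM. In stromal cells without the rich barcodes the levels were 751 CPM for Il17a, 256 CPM for Il22, 110 CPM for Il17f and 39.7 CPM for Ccl20.

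**Figure D4:**
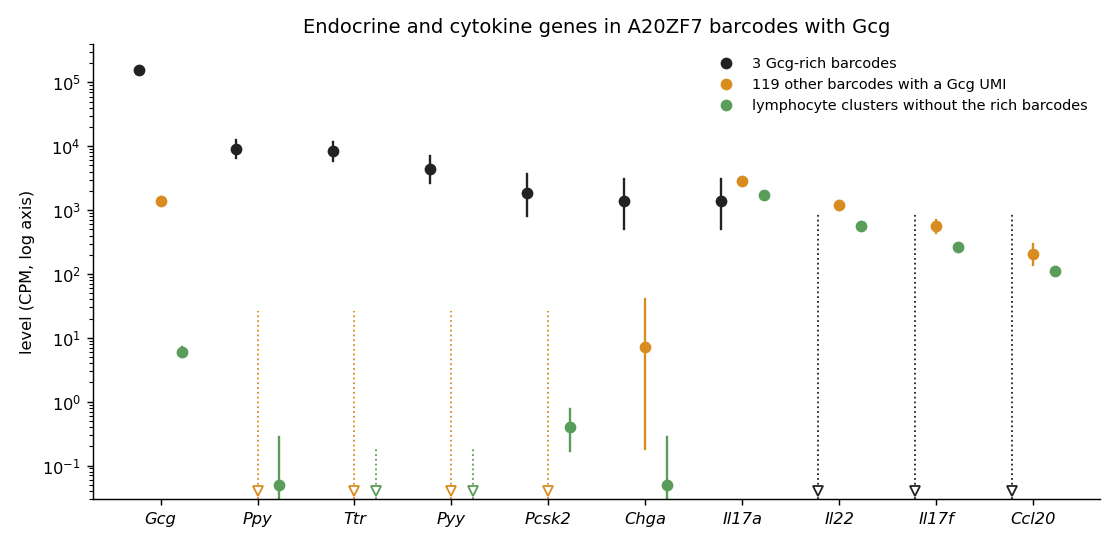
Level (CPM, log axis) of Gcg, islet genes and cytokine genes in the 3 Gcg-rich barcodes, the 119 other barcodes with Gcg, and the lymphocyte clusters without the rich barcode of A20ZF7, with 95% Poisson intervals and triangles at 0 UMIs with a dotted line to the upper limit. Ttr, Ppy, Pyy and Pcsk2 appear in the rich barcodes and are at 0 in the 119 others, which were picked by their Gcg UMI. In the 119, Il17a (2864 CPM) and Il22 (1196 CPM) are above their lymphocyte levels (1740 and 559 CPM).

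The rich barcodes were left out of the following splits. In A20ZF7 lymphocytes with an Il17a UMI, Gcg was at 9.56 CPM against 3.12 CPM in those without (ratio 3.07, 2.04 to 4.696). With Il22, the interleukin-22 gene, it was at 13.4 against 3.63 CPM (3.702, 2.56 to 5.38), the former from 68 UMIs in 30 cells. For Mki67, a proliferation gene, the values were 15.6 and 4.94 CPM. The former came from 34 UMIs in 13 cells, and cells with Mki67 were deeper (median 1336.5 against 692 UMIs). In cells with Foxp3, the Treg factor, Gcg was at 0.785 against 6.44 CPM without (0.122, 0.00306 to 0.691, 1 UMI). Stromal cells with an Il17a UMI had Gcg at 4.29 CPM and those without at 0.995 CPM (4.31, 2.10 to 9.38). Cells with Il17a were deeper (median 856 against 642 UMIs in lymphocytes, 1405.5 against 920 in stromal cells), and Il17a itself was in sparse barcodes and, at 751 CPM, in A20ZF7 stromal cells. The part of depth and of free RNA in these ratios was not tested.

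Between genotypes, Gcg was at least 39.4-fold higher in A20ZF7 lymphocytes than in WT lymphocytes, set against a floor of 3 UMIs in WT. Without the rich barcodes this bound was 11.4-fold. In all, 3 of the 8 genes passed the minimum in this comparison, of which Gcg and Penk were higher and Sst lower, beside 6.54% of all genes higher and 5.24% lower. Without the rich barcodes only Gcg and Penk passed and both were higher (6.57%). As each genotype is 1 library, genotype, library and the presence of Gcg-rich droplets cannot be told apart. The same holds for differences in processing. The libraries list different numbers of genes, and barcodes with both hashtags could be left out in WT alone. Pancreatic enzyme genes, a list chosen after the leading genes of cluster 16 had been seen, were at 237 CPM in A20ZF7 against 91.8 CPM in WT sparse barcodes, at 174 against 32.9 CPM in lymphocytes and at 175 against 13.9 CPM in stromal cells. Of the lymphocyte UMIs of these genes, 2947 of 3521 in A20ZF7 and 130 of 185 in WT lay in cluster 16, and the other lymphocyte clusters of A20ZF7 had 10.04 to 61.0 CPM. Their part in the Gcg levels was not tested. In stromal cells 3 genes passed as well, with Gcg higher, Cck lower and Penk not called, beside 8.41% of all genes higher and 7.38% lower.

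Penk showed another pattern, with many barcodes of few UMIs each. The WT library held 977 Penk UMIs in 705 barcodes, of which 158 had 2 or more and 17 had 5 or more, and no barcode held more than 8. The A20ZF7 library held 3924 UMIs in 2357 barcodes, of which 699 had 2 or more and 119 had 5 or more, with at most 17.  No barcode was rich in Penk by the limit of 20 UMIs.

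In WT, Penk was highest in stromal cells among these compartments. It stood at 61.1 CPM in stromal cells (56.2 to 66.2, 586 UMIs), 12.4 CPM in lymphocytes (9.69 to 15.7, 70 UMIs), 7.78 CPM in B and plasma cells (13 UMIs) and 2.33 CPM in epithelial cells (5 UMIs). Sparse barcodes had 17.7 CPM (11.6 to 25.9, 26 UMIs), so lymphocytes as a whole were not above them (ratio 0.703, 0.442 to 1.15). The summed epithelial reference genes had a ratio of 0.0595 in WT lymphocytes without the rich barcode. The Penk ratio therefore does not place lymphocyte Penk at the level of free RNA, and the part of free RNA in it was not tested. Stromal cells held 83.8% of the Penk UMIs in cells with 50.2% of the cells.

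In A20ZF7 the order changed. Lymphocytes had 93.3 CPM (89.1 to 97.6, 1885 UMIs), stromal cells 71.3 CPM (67.5 to 75.3, 1293 UMIs), epithelial cells 71.4 CPM (30 UMIs) and B and plasma cells 38.3 CPM (110 UMIs). Sparse barcodes had 43.3 CPM (29.96 to 60.4, 34 UMIs). Lymphocytes exceeded them 2.16-fold (1.54 to 3.12). Stromal cells held 36.4% of the Penk UMIs in cells, and the interval of epithelial cells spans the levels of both neighbours in this order. A Penk UMI was seen in 4.29% of A20ZF7 lymphocytes (4.03 to 4.56, median 713 UMIs) and 0.795% of WT lymphocytes (0.576 to 1.07, median 876 UMIs). In B and plasma cells, which are not known for Penk, the shares were 4.73% and 1.502%, at median depths of 1953 and 3450 UMIs. Thinned to 500 UMIs per cell, the shares in A20ZF7 and WT were 2.97% and 0.425% in lymphocytes, 2.77% and 2.65% in stromal cells and 1.64% and 0.215% in B and plasma cells. Of the A20ZF7 lymphocytes, 362 held 2 or more Penk UMIs and 78 held 5 or more.

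Within lymphocytes, Penk was highest in the Treg-like cluster 9 of both libraries. There it was at 209 CPM in WT (129 to 320, 21 UMIs in 97 cells) and 262 CPM in A20ZF7 (241 to 286, 536 UMIs in 2294 cells). The 21 WT UMIs lay in 9 cells, with up to 7 in 1 cell. The WT intervals of this cluster count UMIs and leave out the spread between cells and mice. Cluster 9 exceeded the other lymphocyte clusters together 23.6-fold in WT (13.4 to 40.1, 10.6% of all genes at least 2-fold higher) and 3.54-fold in A20ZF7 (3.19 to 3.91, 1.76% of all genes). It exceeded sparse barcodes 11.8-fold (6.32 to 21.8, background 16.4%) and 6.07-fold (4.29 to 8.86, background 7.92%). The cluster was named from its Treg markers, and Foxp3 was at 338 and 232 CPM in it against 14.96 and 43.3 CPM in sparse barcodes. Il17a was at 279 and 1805 CPM in it, against 91.8 and 590 CPM in sparse barcodes. In A20ZF7, 392 of its cells held a Foxp3 UMI and 892 an Il17a UMI. Of its 536 Penk UMIs there, 389 were in cells without a Foxp3 UMI. Cluster 9 held 30% and 28.4% of lymphocyte Penk UMIs with 1.79% and 10.1% of lymphocytes.

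The proliferating cluster 6 followed with 55.0 CPM in WT (18 UMIs in 8 cells) and 118 CPM in A20ZF7. These were 3.11-fold and 2.74-fold the sparse level (14% and 10.2% of all genes at least 2-fold higher). The remaining lymphocyte clusters were low in WT and near or above the sparse level in A20ZF7. The ILC2-like cluster 4 had 9.76 and 68.7 CPM, cluster 0 9.77 and 67.6 CPM, cluster 3, led by Klrb1b and Fcer1g, 1.31 and 54.1 CPM, and the CD8 T-like cluster 2 4.63 and 42.05 CPM. Cluster 16, which carries pancreatic enzyme genes (3979 CPM summed in A20ZF7), had 0 UMIs in its 23 WT cells and 101 CPM in A20ZF7.

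**Figure D5:**
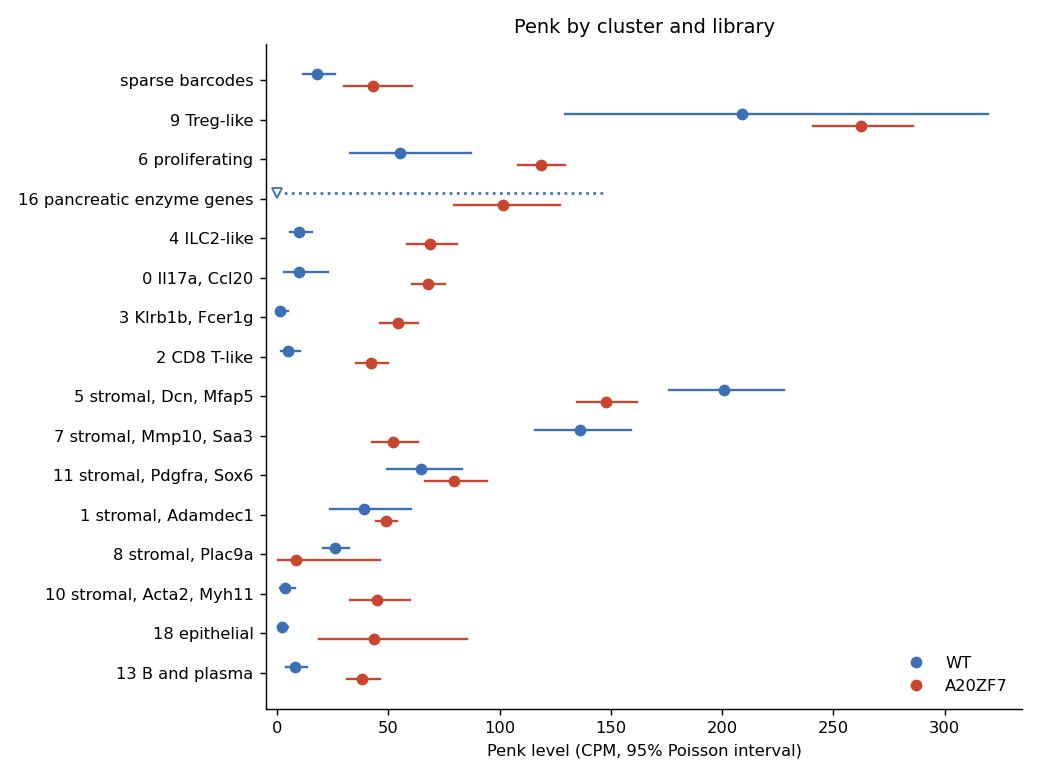
Penk level (CPM) in each cluster with exact 95% Poisson intervals, WT in blue and A20ZF7 in red, with the sparse barcodes of each library and triangles at 0 UMIs. The Treg-like cluster 9 is the highest lymphocyte cluster in both libraries (209 and 262 CPM), and stromal clusters 5 and 7 stand at 201 and 136 CPM in WT and at 148 and 52.2 CPM in A20ZF7.

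Among stromal clusters, Penk was at 201 CPM in WT and 148 CPM in A20ZF7 in cluster 5, 11.4-fold and 3.42-fold the sparse level (22.2% and 18.6% of all genes at least 2-fold higher). Other stromal clusters ranged from 3.69 to 136 CPM in WT and from 8.25 to 100.5 CPM in A20ZF7. Among them were cluster 7 (136 and 52.2 CPM), cluster 11 (64.7 and 79.5 CPM), cluster 20 (52.9 and 67.8 CPM), cluster 1 (38.8 and 48.9 CPM) and cluster 15 (8.89 and 100.5 CPM, from 1 and 81 UMIs). Cluster 10, led by the smooth muscle and pericyte genes Acta2, Myh11 and Notch3, had 3.69 CPM in WT and 44.8 CPM in A20ZF7, close to the sparse level of the latter.

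The difference between genotypes varied widely from cluster to cluster. The ratio of A20ZF7 to WT was 7.502 over all lymphocytes (5.91 to 9.66) and 2.45 in sparse barcodes (1.42 to 4.24, the only gene of the 8 that passed there, with 6.44% of all genes at least 2-fold higher). In stromal cells it was 1.17 (1.06 to 1.29). In cluster 9 it was 1.26 (0.813 to 2.05), an interval that includes no difference, and in cluster 6 it was 2.15 (1.35 to 3.66). In lymphocyte clusters with little Penk in WT it was larger: 6.92 in cluster 0 (2.93 to 21.4), 7.04 in cluster 4 (4.31 to 12.2) and 41.4 in cluster 3 (11.3 to 345). Of all genes, 7.51% were at least 2-fold higher in cluster 6, 10% in cluster 0, 5.3% in cluster 4 and 5.57% in cluster 3. Large ratios also appeared outside lymphocytes, at 30.7 in epithelial cells (11.8 to 101), which were mostly of cluster 18 in WT (494 of 579 cells) and mostly of cluster 22 in A20ZF7 (247 of 326 cells), and 12.1 in cluster 10 (5.17 to 34.8), where 27% and 9.07% of all genes were at least 2-fold higher. Cluster 22 held more lymphocyte RNA than cluster 18 (Ptprc at 577 and 67.7 CPM). Clusters 5 and 7 were lower in A20ZF7, at 0.736 (0.628 to 0.865) and 0.384 (0.296 to 0.495, with 3.66% of all genes at least 2-fold lower in cluster 7). The share of cluster 9 among lymphocytes also differed (1.79% in WT, 10.1% in A20ZF7), and how much of the ratio over all lymphocytes came from it and how much from free RNA was not tested.

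Penk also differed between cells of the same library. In A20ZF7 lymphocytes it was at 190 CPM in cells with a Foxp3 UMI against 86.8 CPM in those without (2.19, 1.90 to 2.51). In WT the values were 101 and 10.8 CPM (9.33, 4.26 to 18.4, 10 UMIs in cells with Foxp3). Areg, which encodes the tissue repair factor amphiregulin, divided the lymphocytes as well, with 158 against 64.1 CPM in A20ZF7 and 50.8 against 7.77 CPM in WT. Within cluster 9, cells with Foxp3 had 373 against 236 CPM in A20ZF7 (1.58, 1.299 to 1.92) but 136 against 239 CPM in WT (0.570, 0.140 to 1.75, 4 UMIs in cells with Foxp3). There, cells with Areg had 300 CPM against 191 CPM in A20ZF7 (1.57, 1.29 to 1.92). In WT they had 475 against 48.0 CPM (9.90, 2.89 to 52.5), from 18 UMIs in 6 cells against 3 UMIs in 3 cells. The WT ratio thus rests on few cells. Cells of cluster 9 with Il17a had less Penk in A20ZF7, at 181 against 331 CPM (0.548, 0.454 to 0.659), whereas over all A20ZF7 lymphocytes those with Il17a had 100.2 against 87.3 CPM (1.15, 1.05 to 1.26) and over stromal cells 83.9 against 65.0 CPM (1.29, 1.15 to 1.45). In stromal cells of A20ZF7, those with Foxp3 had 137 against 68.5 CPM (1.997, 1.62 to 2.44) and in WT 46.9 against 61.2 CPM (0.766, 0.158 to 2.25), although stromal cells are not known to use Foxp3. The part of free RNA and of droplets with more than 1 cell was not tested.

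The hashtags allowed the WT mice to be told apart in cells with a hashtag call. Without a call were 1509 of 5412 lymphocytes, 4870 of 7400 stromal cells and 24 of 97 cells of cluster 9. Penk was at 8.03, 64.4 and 271 CPM in these. Over lymphocytes Penk was at 11.7 CPM (25 UMIs) in the mouse with hashtag 7 and 16.02 CPM (34 UMIs) in the mouse with hashtag 8, and over stromal cells at 54.3 and 59.1 CPM. In cluster 9 the intervals of the mice did not overlap, at 47.9 CPM (5.80 to 173) from 2 UMIs in 40 cells and 356 CPM (190 to 609) from 13 UMIs in 33 cells. The UMIs of the latter lay in 5 cells, so this difference rests on few cells. The A20ZF7 mice were not told apart, since the antibody counts listed for A20ZF7 were identical to those of WT.

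Sst encodes somatostatin, which inhibits hormone release and is made by D cells and by enteric neurons. Of 138 Sst UMIs in WT, 98 (71.0%) were in 2 barcodes with 55 and 43, and of 736 in A20ZF7, 673 (91.4%) were in 1 barcode of 7355 UMIs and 3093 genes. These 3 barcodes carried neuronal genes. Calcb, the beta-CGRP gene, had 16, 6 and 24 UMIs, Calb2 (calretinin) 3, 9 and 22 UMIs, Scg2 (a granule protein) 5, 4 and 35 UMIs, and Snap25, of the synaptic release machinery, 3, 1 and 16 UMIs. Only the WT barcode with 43 Sst UMIs was among the cells, in proliferating cluster 6, so that cluster had 131 CPM of Sst in WT from this barcode alone.

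Outside these barcodes Sst was lower in lymphocytes than in free RNA. WT lymphocytes went from 7.99 CPM (45 UMIs) to 0.355 CPM (2 UMIs) and A20ZF7 lymphocytes had 0.544 CPM (11 UMIs), against 7.48 CPM (11 UMIs) and 10.2 CPM (8 UMIs) in sparse barcodes. The ratios were 0.0475 (0.00511 to 0.218) and 0.0535 (0.0196 to 0.153), on fewer than the 20 UMIs of the minimum, and stromal cells were as low, at 0.417 and 0.441 CPM. Lymphocyte Sst therefore appeared lower in A20ZF7 than in WT with the rich barcode (ratio 0.0681) and not without it (1.53, 0.334 to 14.2).

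Cck encodes cholecystokinin, made by I cells of the upper intestine. In WT, 82 of 194 Cck UMIs (42.3%) were in 2 barcodes, which were not among the cells. The one with 53 Cck UMIs held 382 UMIs in all, with 23 of Sct and 4 of Ghrl, the ghrelin gene, both of enteroendocrine cells. The other, with 29 of 3299 UMIs, held 1 of Sct. The A20ZF7 library had 54 Cck UMIs in 49 barcodes and no such barcode.

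Most Cck within cells was stromal, at 65 of 77 UMIs in WT and 44 of 48 in A20ZF7. Cluster 10, with smooth muscle and pericyte genes, had 35.6 CPM in WT (27.1 to 46.1, 58 UMIs) and 31.1 CPM in A20ZF7 (21.3 to 44.0, 32 UMIs). It exceeded the other stromal clusters 40.6-fold (18.5 to 105, 8.5% of all genes at least 2-fold higher) and 44.4-fold (22.3 to 94.6, 7.23%). Lymphocytes had 0 UMIs of Cck in both libraries, epithelial cells 9 in WT (4.19 CPM) and 0 in A20ZF7, and sparse barcodes 4 in WT (2.72 CPM) and 0 in A20ZF7. The A20ZF7 to WT ratio was 0.358 over stromal cells (0.239 to 0.533, 7.38% of all genes at least 2-fold lower) but 0.874 within cluster 10 (0.549 to 1.37). In WT, cluster 10 had 47.6 CPM in the mouse with hashtag 7 (27.7 to 76.2, 17 UMIs) and 8.42 CPM in the mouse with hashtag 8 (1.02 to 30.4, 2 UMIs). These intervals overlap, which does not show that the mice were alike. Of the 58 UMIs, 39 were in cells with no hashtag call (37.8 CPM).

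The last 4 genes were rare. Nts, the neurotensin gene of N cells, had 19 UMIs in WT, 14 of them in 1 barcode outside the cells, and 12 in A20ZF7. Of the latter, 8 were in cluster 23, led by Ccl21a, Mmrn1, Reln and Lyve1, genes of lymphatic endothelium, at 39.5 CPM (17.1 to 77.9), and its 26 WT cells held 1 UMI (30.9 CPM). Chga, the chromogranin A gene of endocrine granules, had 24 and 20 UMIs, with 10 and 4 of them in epithelial cells (4.65 and 9.52 CPM) and 1 and 3 in lymphocytes, 2 of the latter in the barcode with 301 Gcg UMIs. Gip, the gene of the incretin made by K cells, had 3 UMIs in WT, all in epithelial cluster 18, and 2 in A20ZF7. Pyy, made in L cells beside Gcg, had 1 UMI in WT and 20 in A20ZF7, of which 16 were in the barcode with 301 Gcg UMIs. None of the 4 reached 20 UMIs over lymphocytes and sparse barcodes without the rich barcodes, so no difference from free RNA was detectable at this depth.

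Other genes of the same systems were compared between lymphocytes and sparse barcodes in the same way. Of 28 further enteroendocrine genes, 6 passed the minimum in WT, with 3 at least 2-fold higher (Scg5, Pcsk1 and Tph1) and 2 lower, beside 12.6% and 14.5% of all genes. In A20ZF7 4 passed, with 1 higher (Pcsk1) and 0 lower, beside 6.64% and 17.4% of all genes. Among lymphocyte clusters, Tph1, the enzyme of serotonin synthesis, and Pcsk1 were highest in the ILC2-like cluster 4. There Tph1 was at 130 and 187 CPM and Pcsk1 at 84.6 and 14.7 CPM in WT and A20ZF7. Of 7 opioid genes 2 passed in each library, with 0 higher and 0 lower in WT and 0 higher and 1 lower (Oprm1) in A20ZF7, against the same shares of all genes. Oprm1, the mu receptor for enkephalin, was at 9.06 CPM in WT lymphocytes and at 6.23 CPM in A20ZF7, where sparse barcodes had 30.5 CPM. Of 16 peptide receptors, 1 passed in each library. In WT this was Npy1r, a receptor of peptide YY and neuropeptide Y, which was lower in lymphocytes (ratio 0.0290) than the 12.2 CPM of sparse barcodes. In A20ZF7 it was Glp1r, the receptor of GLP-1, at 10.49 CPM (9.12 to 12.0) against 3.82 CPM (0.787 to 11.2) from 3 UMIs in sparse barcodes, whose intervals overlap. It was at 3.02 CPM in WT lymphocytes.

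The genes whose levels most resembled Gcg depended on the rich barcodes. Likeness was Pearson's r of log2(CPM + 20) over 24 lymphocyte clusters and other compartments of both libraries, among 4084 genes. These points share their libraries and depths. With all barcodes, the 5 closest to Gcg were the cell cycle genes Clspn (r = 0.643), Hist1h1b, Nusap1, Mki67 and Pclaf. Without the rich barcodes they were Il17f (r = 0.676), Raet1e (0.663), Ccl20 (0.649), B3galt1 and Il17a (0.634). Gcg then reached at most 12.1 CPM at any point, below the 20 CPM added before the log, and had 0 UMIs in WT lymphocytes. Il17a, Il17f and Ccl20 were also lower in WT lymphocytes (343, 15.3 and 17.9 CPM) than in A20ZF7 (1740, 267 and 112 CPM). How much of r reflects this difference between the libraries was not tested. The 5 closest to Penk were Eea1 (r = 0.871), Tnfrsf9 (0.852), an activation receptor of T cells, Cxcl3 (0.810), Adamts6 and Neb (0.804).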

How the data were processed

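The authors' deposited tables hold raw UMI counts per gene and barcode, unfiltered. Per the labels' processing notes they were made with Cell Ranger 7.1 on mm10, but the header of the WT gene expression counts names 8.0.0. The WT and A20ZF7 libraries list 33696 and 32285 genes, and only the 31950 shared gene IDs were used. Barcodes with 200 to 2500 genes and at most 15% mitochondrial UMIs, above a UMI minimum set per library (675 in WT, 397 in A20ZF7), were kept as cells. WT barcodes with both hashtags were left out. In A20ZF7 such barcodes could not be found, since its antibody counts were identical to those of WT, and any were kept. Scrublet calls, made with scanpy 1.11.5, were left in. Cells were clustered with Seurat 5.3.0 (2000 variable genes without the 8 genes, Il17a, Il17f and Il22, cell cycle scores regressed out, 30 components, resolution 0.8) and named from marker lists. Counts were summed per set of barcodes with scipy 1.17.1 and numpy 2.4.6, tabulated with pandas 2.3.3 and given as CPM, with exact intervals from scipy. A gene was called at a 2-fold difference with at least 20 UMIs over both sets. The ratio step was checked on simulated counts. All 8 genes were named by gene ID, with the 5 most alike genes of Gcg and Penk and fixed lists. The genes and lists were chosen with earlier results of these data known. The lists of islet, pancreatic enzyme, neuronal, enteroendocrine hormone and lymphatic endothelial genes were chosen after their values had been seen. Alternatives changed the sparse window, the reference, the cell minimum, the gating, the total, doublets, depth and WT mouse. RefSeq gave the promoter windows, and Penk had no entry.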

Additional observations from a re-analysis of the deposited data

Results flagged for a closer look

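Signals in barcodes left out of the comparisons drew attention in 4 cases, each a single barcode with 20 or more UMIs of 1 peptide gene. In WT, 1 barcode below the UMI minimum held 53 Cck UMIs, and 1 barcode with both hashtags held 29. Another WT barcode with both hashtags held 55 Sst UMIs. In A20ZF7, 1 barcode above the upper limit of 2500 genes held 673 Sst UMIs. Their other genes are given with Sst and Cck above.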

How the results depend on the processing

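No paired analysis was possible because each genotype has 1 library and the groups share only replicate number 1. The Gcg level of A20ZF7 lymphocytes over sparse barcodes (2.36 as reported) turned below 1 with 200 genes as the only minimum (0.519), with a gate on marker UMIs (0.740), with stromal cells as the reference (0.958) and, an alternative added after the data had been seen, without barcodes rich in 1 gene (0.683). It was 6.62 with barcodes of 51 to 200 UMIs, also added later, and 7.05 with 51 to 100 UMIs as the reference. Both of these ratios keep the lymphocyte barcode of 301 Gcg UMIs. The sets with 200 genes and with the gate held 86 and 109 Gcg UMIs, fewer than that barcode alone, so it was not in them. The stromal reference held the other rich barcodes, of 204 and 155 Gcg UMIs. The bound for Gcg in A20ZF7 over WT lymphocytes (39.4) was 9.03 with the gate, 18.8 with thinned cells, 11.4 without the rich barcodes and 14.84 to 14.96 with 1 WT mouse alone. Without the rich barcodes it fell with the A20ZF7 UMIs (123 in place of 424), and with 1 mouse through the higher floor of fewer WT cells. Penk in A20ZF7 over WT lymphocytes (7.502) was 5.39 with a minimum of 1000 UMIs and 5.82 to 7.98 with 1 WT mouse. Penk over sparse barcodes was 1.31 against stromal cells in A20ZF7 (2.16 as reported). In WT (0.703) it was 0.204 against stromal cells, 1.31 against 51 to 200 UMIs and 1.88 against 51 to 100 UMIs. The number of genes at least 2-fold above sparse barcodes in A20ZF7 lymphocytes (2) was 1 with 200 genes, the gate or no rich barcodes and 0 against stromal cells, and in WT (0) it was 1 with 1000 UMIs or against stromal cells. Leaving out the cell barcodes that both libraries share, added later, left all of these values on their side (Gcg 2.39 and 37.6, Penk 2.17, 0.620 and 8.58). Beyond where the rich barcodes fell, the causes of these shifts were not tested. The few sparse UMIs, 0 and 7 for Gcg and 26 and 34 for Penk, limit every ratio to free RNA.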
